A study of Homo sapiens with 36 samples.

Results

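ADCY1, ADRA2A and SSTR2 encode an enzyme that makes cyclic AMP and 2 receptors that restrain its production, and they were followed here through 9 hormone treatments of a breast cancer cell line. The platform annotation assigned 4 of the 48803 bead types to these genes: ILMN_2120555 and ILMN_1742073 to ADCY1, ILMN_1659371 to ADRA2A and ILMN_2152257 to SSTR2. All 4 bead types passed the filter on dim signals, and the 3 genes were among 12195 tested. The genes were picked with their levels on these arrays known, so those levels, differences and orders are given as descriptions, with errors and without tests.

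Cyclic AMP is made from ATP by adenylyl cyclases in the plasma membrane and acts mainly through protein kinase A, which phosphorylates the transcription factor CREB. Receptors coupled to the stimulatory G protein Gs raise its production and those coupled to Gi lower it, while phosphodiesterases degrade it. ADCY1 is an adenylyl cyclase activated by calcium and calmodulin and best known from neurons. ADRA2A is a Gi-coupled receptor for adrenaline and noradrenaline. SSTR2 is a Gi-coupled receptor for somatostatin, known from neuroendocrine tumours and also found in estrogen receptor-positive breast cancers.

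ZR-75-1 is an established human breast cancer line that expresses estrogen receptor. Total RNA of 36 samples, 4 in each of 9 groups, was hybridised to 1-colour Illumina bead arrays. Before treatment for 16 h, the cells were kept for 48 h without phenol red in serum (10%) from which hormones had been removed. The groups were ethanol vehicle (VC), estradiol (E2), the androgen 5a-dihydrotestosterone (DHT), the synthetic progestin medroxyprogesterone acetate (MPA), progesterone (PROG), and estradiol with each of these steroids (E2+DHT, E2+MPA and E2+PROG). The ninth group, E2s+PROG, was also described as estradiol with progesterone, and the meaning of its "s" was not given. A concentration of 10 nM was stated for E2 and for DHT, alone or combined, and none for the other steroids. No label said whether the replicates were separate cultures, so the errors and p-values below cover only the variation among these samples, and part of it may be technical.

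All values are log2 of background-corrected, quantile-normalised signal, and levels were compared within a bead type and never between bead types. Between 33.2% and 37.9% of bead types were above background on each array (detection p under 0.05), and the dimmest signal above background lay between 5.86 and 6.21. In the order of the deposited columns, 12 neighbouring arrays scored from -49.2 to -6.16 on the first residual component, which held 49.4% of the residual variance. This run held 3 of the 4 DHT arrays, 2 each of E2, E2+MPA and E2+PROG, 1 each of VC, E2+DHT and E2s+PROG, and none of MPA or PROG. Outside the run, VC replicate 1 scored -53.8, beyond that range, MPA replicate 2 scored -7.98, inside it, and the other arrays scored above it. The 9 luminal epithelial markers with a bead type, ESR1 among them, were above background on all 36 arrays. Of 11 markers of other cell types, KRT5, KRT14, COL3A1, PTPRC and CD3E were above background on none, VIM on 1, DCN on 4, VWF on 26, PECAM1 on 34 and COL1A1 and CD68 on all 36, and their part in the results was not tested. VWF, known from endothelium, had means of 8.24 ± 0.42 in DHT and 8.40 ± 0.18 in E2+DHT, against 6.36 ± 0.58 in VC and 6.53 ± 0.67 in E2 (SD, n = 4). The progesterone receptor gene PGR was 3.21 log2 units higher in E2 than in VC (limma, adjusted p = 2.32e-11), and was above background on 1 of 4 VC arrays and all 4 E2 arrays. FKBP5, a target of androgen and progesterone receptors, was 1.87 higher in DHT than in VC (limma, adjusted p = 1.14e-11) and 1.68 higher in MPA (limma, adjusted p = 3.48e-10), against 0.17 in PROG (limma, adjusted p = 0.402).

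ADCY1 lies on chromosome 7 (chr7:45574140-45723116), ADRA2A on chromosome 10 (chr10:111077029-111080907) and SSTR2 on chromosome 17 (chr17:73165010-73176633) in the RefSeq annotation of build GRCh38.p14. The sequence around each annotated gene start is shown because these genes were read out as transcripts under ligands of DNA-binding receptors. Each window runs from 250 bases before the start to 50 bases after it on the plus strand, and capitals mark GGTCA or its complement TGACC, the core bound by estrogen receptor, and TGACG or its complement, the core bound by CREB.
ADCY1, chr7:45573890-45574189: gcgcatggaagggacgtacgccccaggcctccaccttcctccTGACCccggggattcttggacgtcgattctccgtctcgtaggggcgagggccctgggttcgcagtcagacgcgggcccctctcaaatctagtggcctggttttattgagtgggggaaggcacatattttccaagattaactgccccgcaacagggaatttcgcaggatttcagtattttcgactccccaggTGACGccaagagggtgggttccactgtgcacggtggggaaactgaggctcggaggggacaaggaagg
ADRA2A, chr10:111076779-111077078: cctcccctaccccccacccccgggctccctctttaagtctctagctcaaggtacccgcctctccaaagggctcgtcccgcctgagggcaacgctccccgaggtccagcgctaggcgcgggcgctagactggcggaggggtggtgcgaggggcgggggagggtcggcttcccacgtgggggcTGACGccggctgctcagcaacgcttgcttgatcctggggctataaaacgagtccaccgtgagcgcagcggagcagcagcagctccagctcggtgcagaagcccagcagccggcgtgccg
SSTR2, chr17:73164760-73165059: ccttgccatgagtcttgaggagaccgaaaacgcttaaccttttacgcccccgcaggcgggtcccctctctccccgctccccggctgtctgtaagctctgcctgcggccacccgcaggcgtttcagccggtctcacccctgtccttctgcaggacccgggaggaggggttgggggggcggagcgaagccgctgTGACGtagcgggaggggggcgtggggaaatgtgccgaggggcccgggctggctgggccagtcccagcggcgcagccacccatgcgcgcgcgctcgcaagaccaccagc

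Motifs were searched on both strands of 4 windows, since RefSeq lists a second start for ADCY1 whose window overlaps the one shown. GGTCA occurred in both ADCY1 windows, 1 time in each, and in neither receptor window, against 37.4% of 35116 RefSeq promoter windows of this length. TGACG occurred 1 time in each of the 4 windows, against 24.6% of all windows. The complete estrogen response element, GGTCA followed after any 3 bases by TGACC, so that each match also counts for GGTCA, was found in 0.057% of windows and had no match in any of the 4. Nor had the androgen and progestin response element, GNACA followed after any 3 bases by TGTNC (0.39% of windows), its core TGTTCT (14.8%) or the complete cyclic AMP response element TGACGTCA (1.85%), which contains TGACG.

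All 3 genes read higher in E2 than in VC, and in each the 4 E2 arrays lay above the 4 VC arrays. Across the array 2.45% of genes were higher in E2 without overlap and no reading is drawn from the genes' own count since their values chose them. ADRA2A was above background on every array with estradiol and on few without it, while ADCY1 also differed between groups that shared estradiol, as the plot of signals by array shows.

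**Figure D1:**
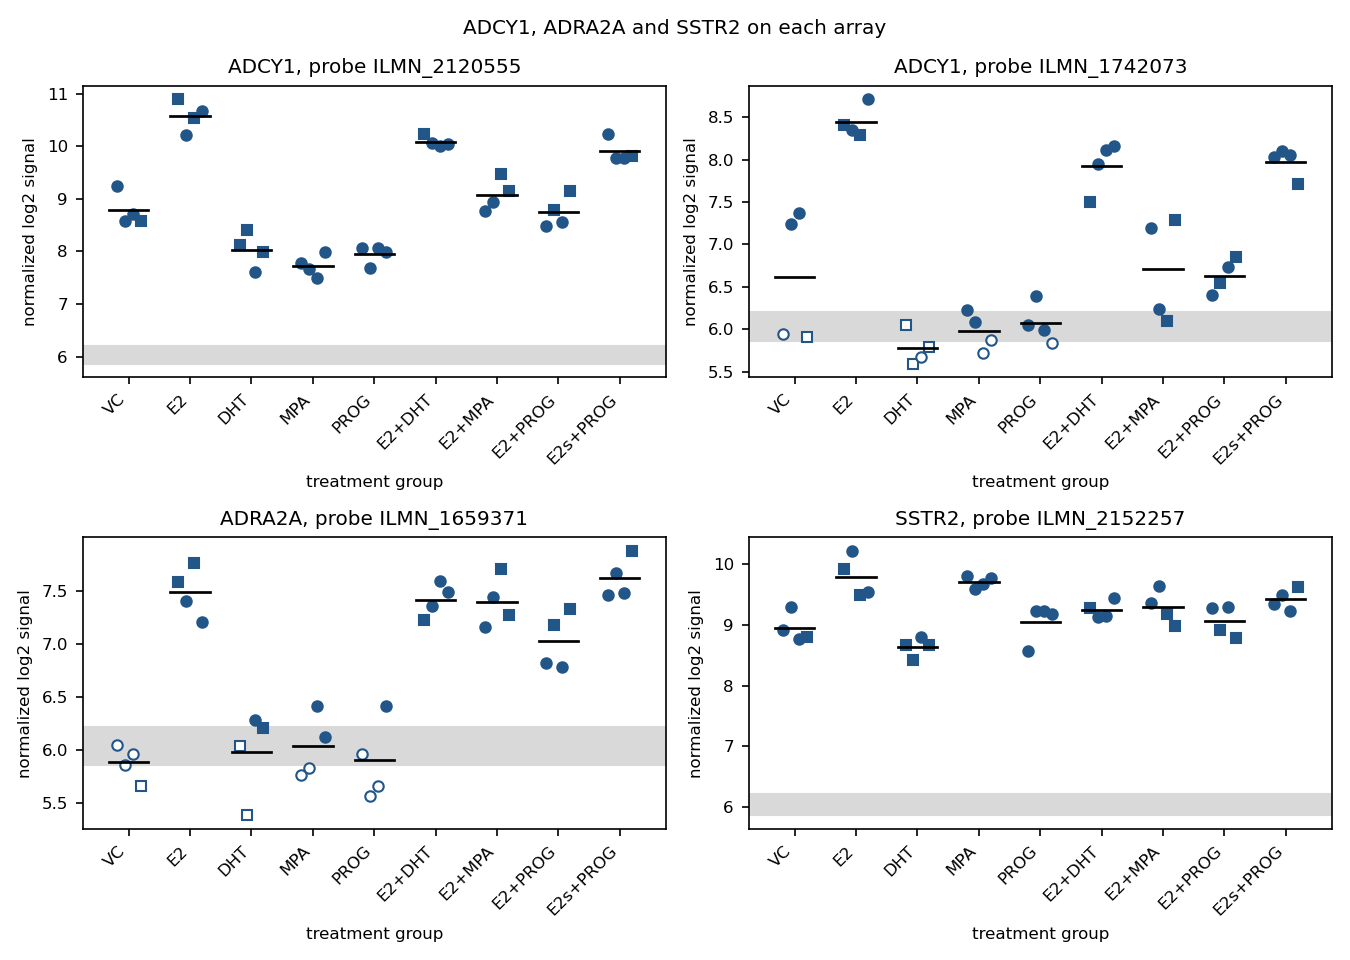
Normalized log2 signal (vertical axis) of the 4 bead types on each of the 36 arrays, by treatment group; squares are arrays of the run of 12 neighbouring columns, circles the others, open symbols are not above background, black lines are group means, and the grey band spans the dimmest signals above background (5.86 to 6.21). The E2 arrays of ADCY1 sit between 10.22 and 10.90 in the first panel, and the 4 VC arrays of ADRA2A are all open.

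The brighter ADCY1 bead type, ILMN_2120555, was above background on all 36 arrays. In VC its signal was 9.24, 8.59, 8.71 and 8.59 in replicates 1 to 4, and in E2 it was 10.90, 10.22, 10.54 and 10.67. Every E2 array was above every VC array, and VC replicate 1 was the brightest of its group. The means were 10.58 ± 0.28 in E2 and 8.78 ± 0.31 in VC (SD, n = 4), a difference of 1.80 ± 0.19 (SE) or 3.49-fold. Within the run of neighbouring columns the difference was 2.13, and outside it 1.60.

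Without E2, each of the other steroids gave a lower ADCY1 signal than vehicle on this bead type. DHT arrays read 8.12, 8.41, 7.60 and 7.99, MPA arrays 7.77, 7.67, 7.50 and 7.99, and PROG arrays 8.06, 7.69, 8.07 and 7.995. All 12 of these arrays lay below the dimmest VC array on ILMN_2120555, whereas on ILMN_1742073 all 3 groups overlapped VC, and the 3 groups overlapped one another. Relative to VC the difference was -0.75 ± 0.19 in DHT, -1.05 ± 0.19 in MPA and -0.83 ± 0.19 in PROG (SE), the MPA difference being 2.07-fold. Among all genes, 3.49% were lower without overlap in DHT, 5.91% in MPA and 8.3% in PROG. The DHT difference was -1.24 outside the run, where DHT has 1 array, and -0.42 inside it, where VC has 1. The part of VWF, higher in DHT than in VC as given above, was not tested.

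Beside E2, DHT gave a higher ADCY1 signal than MPA and PROG, which overlapped each other. E2+DHT arrays read 10.24, 10.06, 10.00 and 10.04, E2+MPA arrays 8.78, 8.94, 9.47 and 9.15, and E2+PROG arrays 8.49, 8.80, 8.56 and 9.14. The E2+MPA and E2+PROG arrays all lay below the E2 range, while the brightest E2+DHT array exceeded the dimmest E2 array by a narrow margin. Against E2 the difference was -0.50 ± 0.19 in E2+DHT, -1.5 ± 0.19 in E2+MPA and -1.84 ± 0.19 in E2+PROG (SE), the last being 3.57-fold lower. Of all genes, 2.74% were lower than in E2 without overlap in E2+MPA and 3.08% in E2+PROG. The mean with E2+PROG, 8.75 ± 0.30 (SD, n = 4), was thus about that of vehicle, 8.78.

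E2s+PROG, though described with the same 2 steroids, gave a higher ADCY1 signal than E2+PROG. Its arrays read 10.24, 9.78, 9.78 and 9.82, all above the 4 E2+PROG arrays (2.75% of all genes were higher without overlap), with a mean of 9.91 ± 0.22 (SD, n = 4). Against E2 the difference was -0.68 ± 0.19 (SE), and replicate 1 reached into the E2 range. FKBP5 also differed between these groups, being 1.74 above E2 in E2+PROG (limma, adjusted p = 2.6e-11) and 0.55 above it in E2s+PROG (limma, adjusted p = 0.186).

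Comparing each pair of groups with and without E2, the ADCY1 signal was higher with E2 beside every steroid. The E2 difference was 2.06 ± 0.19 beside DHT (4.16-fold), 1.35 ± 0.19 beside MPA (2.55-fold) and 0.79 ± 0.19 beside PROG (1.73-fold), with no overlap of arrays in any of these pairs. Of all genes, 2.77% were higher without overlap beside DHT, 4.49% beside MPA and 8.77% beside PROG. Taken as a difference from the E2 effect in vehicle, the values were 0.26 ± 0.26 beside DHT, -0.45 ± 0.26 beside MPA and -1.01 ± 0.26 beside PROG (SE). These pairs share no arrays with each other, but each difference between differences uses the same E2 and VC arrays.

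**Figure D2:**
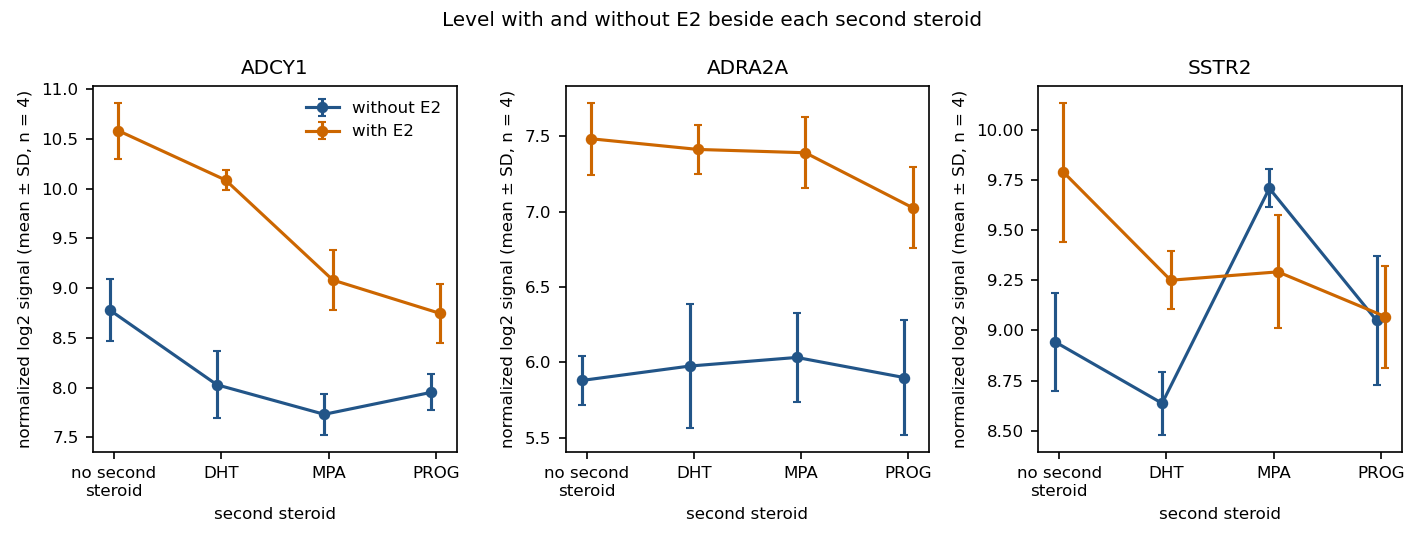
Mean normalized log2 signal ± SD (vertical axis, n = 4 arrays) of each gene without E2 (blue) and with E2 (orange), in the absence of a further steroid and beside DHT, MPA or PROG. The ADCY1 lines draw together from DHT to PROG (E2 difference 2.06, 1.35 and 0.79), the ADRA2A lines stay apart, and the SSTR2 lines meet at PROG (0.02) and cross at MPA (-0.42). Outside the run of neighbouring columns the SSTR2 differences were 0.23 at PROG and -0.21 at MPA.

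Ordered by mean, ADCY1 on ILMN_2120555 ran from E2 (10.58) through E2+DHT (10.09), E2s+PROG (9.91), E2+MPA (9.08), VC (8.78), E2+PROG (8.75), DHT (8.03) and PROG (7.95) to MPA (7.73). Of 8 neighbouring pairs in this order 6 overlapped, and the ranges separated between E2s+PROG and E2+MPA and between E2+PROG and DHT. On ILMN_1742073 the ranges separated elsewhere, between E2 and E2s+PROG and between E2+DHT and E2+MPA, while VC overlapped its neighbours E2+PROG and PROG. On ILMN_2120555 the span of 2.85 between the highest and lowest mean was exceeded by 34 of 12195 genes (0.279%).

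The dimmer ADCY1 bead type, ILMN_1742073, was above background on 27 of 36 arrays. It was so on all 4 arrays of each group with E2, on 2 VC, 2 MPA and 3 PROG arrays and on no DHT array. Its VC arrays split, with 7.24 and 7.37 in replicates 2 and 3 and 5.95 and 5.91, both not above background, in replicates 1 and 4. In E2 it read 8.41, 8.35, 8.29 and 8.71, above all VC arrays, and the difference was 1.82 ± 0.27 (SE). E2+MPA and E2+PROG were below E2 by -1.73 ± 0.27 and -1.81 ± 0.27 (SE), again without overlap. Beside DHT the E2 difference was at least 3.58-fold, a bound that sets the DHT arrays at the dimmest signal above background of each array or at their own signal, whichever is higher.

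The bead types differed in several comparisons. On ILMN_1742073 DHT (at most 6.05), MPA (at most 6.22) and PROG (at most 6.396) all overlapped VC, whose dimmest array read 5.91. E2+DHT (at most 8.16) and E2s+PROG (at most 8.09) lay below the dimmest E2 array, 8.29, on this bead type (1.92% and 0.574% of all genes were lower without overlap), whereas both reached into the E2 range on ILMN_2120555. For MPA, ILMN_1742073 gave -0.64 ± 0.27 for MPA against VC and 0.73 ± 0.27 for E2+MPA against MPA (SE), with overlapping arrays in both, against -1.05 and 1.35 without overlap for ILMN_2120555. Its E2+MPA arrays spread widely, at 7.20, 6.24, 6.10 and 7.29. The difference of the E2 effect beside MPA from that in vehicle was -1.09 ± 0.38 (SE) on this bead type, and beside PROG it was -1.26 ± 0.38. Across the 36 arrays the pair had a Pearson r of 0.880, a description over arrays that share their groups and normalization.

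**Figure D3:**
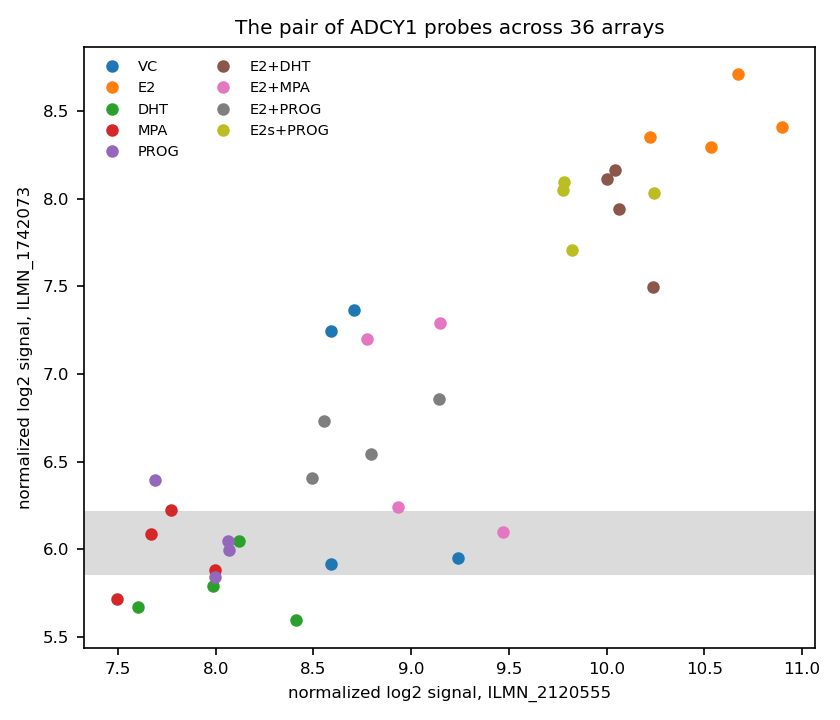
Normalized log2 signal of the ADCY1 bead type ILMN_2120555 (horizontal axis) against that of ILMN_1742073 (vertical axis), 1 point per array, coloured by group; the grey band spans the dimmest signals above background. The E2, E2+DHT and E2s+PROG arrays lie together at the upper right (r = 0.880 over 36 arrays), and the VC and E2+MPA arrays spread along the vertical axis.

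ADRA2A divided the groups by the presence of E2. Its bead type was above background on 25 of 36 arrays: all 20 arrays of the 5 groups with estradiol, 2 each of DHT and MPA, 1 of PROG and none of VC. Replicates 1 to 4 read 6.05, 5.85, 5.96 and 5.66 in VC and 7.58, 7.40, 7.76 and 7.20 in E2. The E2 group was thus at least 2.76-fold above vehicle, with means of 7.48 ± 0.24 and 5.88 ± 0.17 (SD, n = 4) and a fitted difference of 1.60 ± 0.19 (SE).

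With the 3 other steroids alone, ADRA2A was at or near background. DHT arrays read 6.04, 5.38, 6.28 and 6.21, of which replicates 3 and 4 were above background. The MPA readings were 5.77, 5.83, 6.41 and 6.12, again with replicates 3 and 4 above background, and those of PROG were 5.96, 5.56, 5.66 and 6.41, with replicate 4 above it. All 3 groups overlapped VC, and no fold is given since most of these arrays hold only a bound.

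Beside E2, the groups with a further steroid lay near the E2 level of ADRA2A. E2+DHT arrays read 7.22, 7.36, 7.59 and 7.48, E2+MPA arrays 7.16, 7.44, 7.70 and 7.27, E2+PROG arrays 6.82, 7.18, 6.78 and 7.33, and E2s+PROG arrays 7.46, 7.66, 7.47 and 7.88. Each of these groups overlapped E2, with replicates 1 and 3 of E2+PROG the dimmest of the 20 arrays. Differences from E2 were -0.07 ± 0.19 in E2+DHT, -0.09 ± 0.19 in E2+MPA, -0.46 ± 0.19 in E2+PROG and 0.13 ± 0.19 in E2s+PROG (SE). The ADCY1 bead type ILMN_2120555 differed by -1.5 and -1.84 in E2+MPA and E2+PROG on the same arrays.

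The E2 difference of ADRA2A was 1.44 ± 0.19 beside DHT, 1.36 ± 0.19 beside MPA and 1.13 ± 0.19 beside PROG (SE), with no overlap in any pair. Of all genes, 2.77%, 4.49% and 8.77% were higher without overlap in these pairs. The groups without E2 lay mostly at background, where a signal holds only a bound. In order, the means were 7.62 in E2s+PROG, 7.48 in E2, 7.41 in E2+DHT, 7.39 in E2+MPA, 7.03 in E2+PROG, 6.03 in MPA, 5.98 in DHT, 5.90 in PROG and 5.88 in VC. The only neighbours without overlap were E2+PROG and MPA, the boundary between groups with and without E2. The span of 1.74 was exceeded by 309 genes (2.53%).

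SSTR2 was above background on all 36 arrays and stood in another order of groups. In VC it read 8.92, 9.30, 8.76 and 8.80 and in E2 9.91, 10.22, 9.48 and 9.53. The E2 arrays all lay above VC, with replicate 2 the brightest in both groups, and the difference was 0.84 ± 0.17 (SE), 1.80-fold. The value was 0.90 inside the run and 0.88 outside it.

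MPA alone gave an SSTR2 level close to that of E2. The MPA arrays read 9.80, 9.59, 9.67 and 9.77, all above the brightest VC array, for a difference from VC of 0.76 ± 0.17 (SE), 1.70-fold. Of all genes, 4.03% were higher in MPA than in VC without overlap. The DHT arrays, at 8.66, 8.42, 8.80 and 8.68, and the PROG arrays, at 8.57, 9.22, 9.22 and 9.19, overlapped VC, with differences of -0.31 ± 0.17 and 0.11 ± 0.17 (SE). PROG replicate 1 stood below the other 3.

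With E2 present, every added steroid gave a lower SSTR2 mean than E2 alone. E2+DHT arrays read 9.27, 9.14, 9.15 and 9.45 and E2+PROG arrays 9.28, 8.92, 9.29 and 8.79, all below the E2 range. The E2+MPA arrays, at 9.35, 9.65, 9.18 and 8.98, and the E2s+PROG arrays, at 9.34, 9.49, 9.23 and 9.62, reached into it. Differences from E2 were -0.54 ± 0.17 in E2+DHT, -0.50 ± 0.17 in E2+MPA, -0.72 ± 0.17 in E2+PROG and -0.37 ± 0.17 in E2s+PROG (SE). Without overlap, 1.92% of all genes were lower in E2+DHT than in E2, and 3.08% in E2+PROG.

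The E2 difference of SSTR2 was 0.61 ± 0.17 beside DHT, without overlap (2.77% of all genes were higher without overlap). It was -0.42 ± 0.17 beside MPA and 0.02 ± 0.17 beside PROG, the last pair overlapping like the MPA pair. Relative to vehicle the E2 effect was -0.23 ± 0.24 beside DHT, -1.26 ± 0.24 beside MPA and -0.82 ± 0.24 beside PROG (SE). E2 and MPA thus each went with a higher SSTR2 signal, but both together gave a mean of 9.29 ± 0.28 (SD, n = 4), below that of either alone (9.79 and 9.71). MPA and PROG had no arrays in the run of neighbouring columns, while E2+MPA and E2+PROG had 2 each. Outside the run the E2 difference was -0.21 beside MPA and 0.23 beside PROG, against -0.42 and 0.02 over all arrays. The part of the run in these differences was not tested. From highest to lowest the means were E2 (9.79), MPA (9.71), E2s+PROG (9.42), E2+MPA (9.29), E2+DHT (9.25), E2+PROG (9.07), PROG (9.05), VC (8.94) and DHT (8.64). All 8 neighbouring pairs overlapped, so the order between adjacent groups is not resolved. The span of 1.15 was exceeded by 1059 genes (8.68%).

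**Figure D4:**
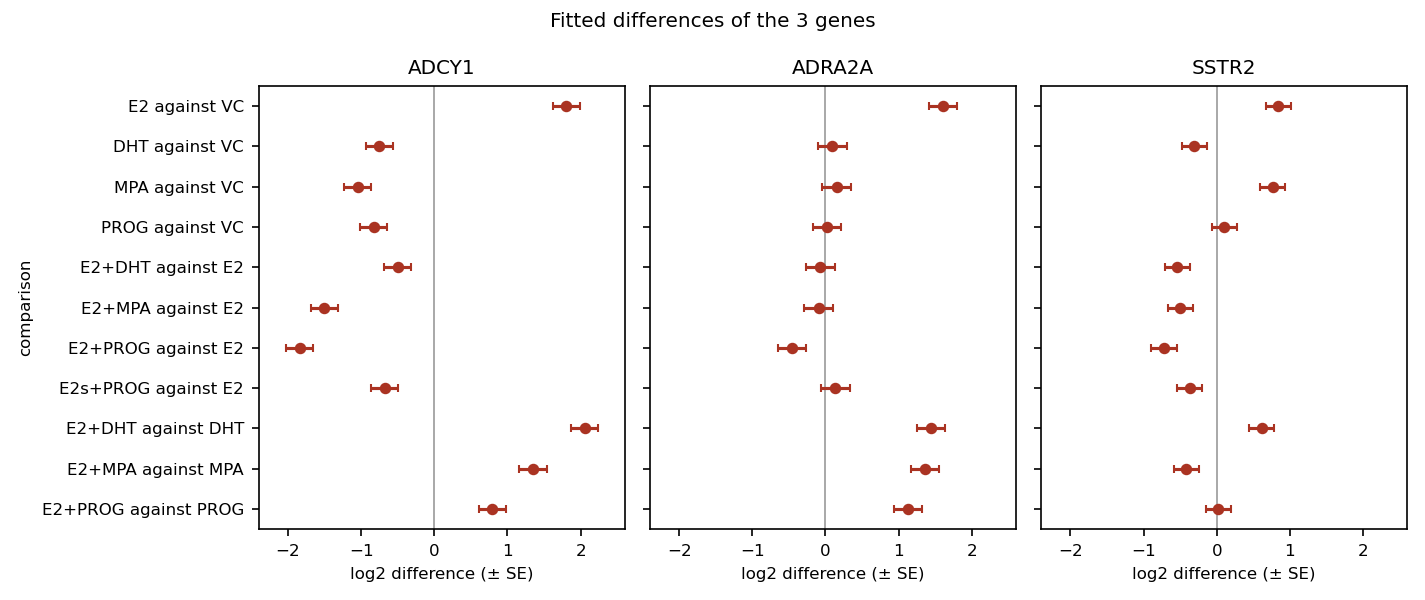
Fitted log2 difference ± SE (horizontal axis) of ADCY1 (ILMN_2120555), ADRA2A and SSTR2 in 11 comparisons (vertical axis), all from 1 model over 36 arrays. ADCY1 is below 0 for every steroid added to E2 (-0.50 to -1.84), ADRA2A lies between -0.46 and 0.13 there, and SSTR2 is above 0 for E2 (0.84) and for MPA (0.76) against VC.

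Over the 9 group means, the Pearson r was 0.855 between ADCY1 and ADRA2A, 0.452 between ADCY1 and SSTR2 and 0.486 between ADRA2A and SSTR2. Among 1453 genes whose group means spanned at least 1 log2 unit, those closest to ADCY1 were PKDCC (r = 0.969), PCDH19 (0.968) and PDPR (0.963), and those most opposed were MAOA (-0.901), ADGRF1 (-0.843) and NTN4 (-0.834). For ADRA2A the closest were PDZK1 (0.989), a scaffold protein known as an estrogen target, CACNG1 (0.979) and IGFBP4 (0.978), which binds insulin-like growth factors. In the groups without E2, PDZK1 means (5.50 to 5.90) lay at or near background like those of ADRA2A, and PKDCC means (5.30 to 5.58) did so too. ADGRF1 (-0.959), TRIB2 (-0.958) and MAOA (-0.930), the mitochondrial monoamine oxidase A that degrades noradrenaline, were the most opposed to ADRA2A. SSTR2 had no such close match: TDRD3 (0.805), NAB1 (0.783) and PHIP (0.763) were closest, and TRIM16 (-0.846), EDARADD (-0.813) and NBR1 (-0.712) most opposed. The VC arrays of TDRD3, NAB1 and PHIP scattered widely, with SDs of 0.82, 1.49 and 1.71 beside spans of 1.00, 1.31 and 1.08 between group means. NTN4 had an SD of 1.62 in VC beside a span of 1.33, and NBR1 had 1.06 in MPA and 1.07 in E2+MPA beside 1.54. ADGRF1 means in E2 (5.74), E2+DHT (5.75) and E2s+PROG (5.85) lay at or near background. So did those of MAOA in E2 (5.86) and E2s+PROG (6.02), while the TRIB2 mean in E2 was 9.28. All these r values are over 9 means of shared arrays and describe likeness of pattern only.

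Of the other 9 adenylyl cyclases, ADCY2, ADCY3, ADCY6, ADCY7, ADCY8 and ADCY9 passed the filter, and ADCY4, ADCY5 and ADCY10 did not. ADCY9, a widely expressed cyclase, was the only one past the threshold (limma, Benjamini-Hochberg adjusted p under 0.05 over 12195 genes), and only where E2 was compared within another steroid, or 1 of 6 cyclases beside 4.81% of all genes in E2+PROG against PROG and 1.33% in E2+DHT against DHT. It was 1.22 ± 0.19 (SE) higher in E2+PROG than in PROG (limma, adjusted p = 5.19e-05, 2.32-fold), and all 4 arrays with E2 lay above all 4 without, as in 8.77% of all genes. In E2+DHT against DHT it was 0.75 ± 0.19 higher (limma, adjusted p = 0.0418), a call lost when DHT replicate 3 or 4 or E2+DHT replicate 1, 2 or 3 was left out. Its values were 0.37 for E2 against VC (limma, adjusted p = 0.343) and 0.73 for E2+MPA against MPA (limma, adjusted p = 0.051). Unlike ADCY1, ADCY9 had a mean of 9.07 ± 0.21 in E2+PROG and 8.90 ± 0.31 in E2 (SD, n = 4), a difference of 0.17 (limma, adjusted p = 0.958).

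Of the remaining adrenergic receptors, ADRA1A, ADRA1B, ADRA1D, ADRA2B and ADRA2C passed the filter and none passed the threshold in any of the 11 comparisons, the smallest adjusted p being 0.164 for ADRA1B in PROG against VC (limma). ADRB1 was above background on no array and ADRB3 on 1. The other somatostatin receptors and their ligands were at background: SSTR1, SSTR4, SSTR5 and somatostatin itself (SST) on all arrays, SSTR3 and cortistatin (CORT) on all but 2. SSTR2 was thus the one somatostatin receptor above background on more than 2 arrays.

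Wider in the pathway, 13 lists of Gi- and Gs-coupled receptors, G proteins, their regulators, phosphodiesterases, protein kinase A, its anchors, further effectors, CREB and CREB targets held 248 other genes, of which 235 had a bead type and 119 were tested. For E2 against VC, 1 was higher and 4 were lower past the threshold, or 4.2% against 1.86% of all genes, and the list's median of -0.04 stood beside -0.02 for all. With the run as a block, 19 were called, 16.0% against 12.4% of all genes, and outside the run 13, 10.9% against 10.5%. The atypical chemokine receptor ACKR3 fell by 1.43 ± 0.22 (SE, limma, adjusted p = 4.28e-05). It was listed with the Gi-coupled receptors, but its place there does not establish that it acts through Gi or cyclic AMP. The cyclic nucleotide exporter ABCC5 fell by 0.90 ± 0.19 (limma, adjusted p = 0.00343), the lactate receptor HCAR1 fell by 0.59 ± 0.13 (limma, adjusted p = 0.0108) and the phosphodiesterase PDE4D fell by 0.80 ± 0.21 (limma, adjusted p = 0.0317). EGR1, an early response gene among the CREB targets, was 0.83 ± 0.21 higher (limma, adjusted p = 0.0238). ACKR3 was also lower with E2 beside each further steroid, at -1.83 beside DHT (limma, adjusted p = 4.96e-07), -1.58 beside MPA (limma, adjusted p = 8.45e-06) and -2.05 beside PROG (limma, adjusted p = 1.99e-08). The count for E2 against VC was 3 without VC replicate 3 or without E2 replicate 2, 3 or 4, and 8 without VC replicate 2. The split of 1 higher and 4 lower became 1 and 1 under median scaling and 3 and 5 in the authors' processed values. For these last refits the share of all genes called is not given, so the changed counts are not a result about the list.

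For the steroids alone, 1 gene of 119 was higher and 3 lower in DHT (2.4% of all genes called), 1 higher and 1 lower in MPA (1.88% of all), and none in PROG (0.0574% of all), where 26 had an unadjusted p under 0.05 (limma). The receptor VIPR1, which binds vasoactive intestinal peptide and couples to Gs, was 0.92 ± 0.21 (SE) higher in DHT (limma, adjusted p = 0.0103), and PDE4D fell by 0.75 ± 0.21 (limma, adjusted p = 0.0463). AKAP11, an anchor of protein kinase A, differed by -0.64 on the bead type used (limma, adjusted p = 0.0313) and by -0.01 on its other one. GRM4, a glutamate receptor, was above background on no DHT array and on 2 VC arrays (limma, adjusted p = 0.0417, at least 1.11-fold lower). In MPA the G protein regulator RGS2 was 1.79 ± 0.43 (SE) higher (limma, adjusted p = 0.0187), its VC arrays ranging from 5.78 to 8.52, and RGS16 fell by 0.89 ± 0.22 (limma, adjusted p = 0.0292). Single arrays moved these counts. Shares of all genes called in those fits are not given, so no reading on the list is drawn from them. That in DHT was 2 without VC replicate 2 or 3 or DHT replicate 3, 1 without VC replicate 1 or DHT replicate 1, and 0 without DHT replicate 2. That in MPA was 16 without VC replicate 2, 4 without VC replicate 3, 1 without MPA replicate 1 and 0 without VC replicate 1 or MPA replicate 3. That in PROG was 12 without VC replicate 2 and 1 without VC replicate 4.

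Added to E2, DHT raised 1 of the 119 genes (1.08% of all genes called), MPA raised 3 (2.14% of all), PROG raised 1 and lowered 1 (2.51% of all), and E2s+PROG changed none, with 4 at an unadjusted p under 0.05 (0.0902% of all called, limma). VIPR1 was 0.88 ± 0.21 (SE) higher in E2+DHT than in E2 (limma, adjusted p = 0.0211) and 1.29 ± 0.21 higher in E2+MPA (limma, adjusted p = 0.000148). GPSM2, a regulator that binds inhibitory G protein alpha subunits, was 0.67 ± 0.15 higher in E2+MPA (limma, adjusted p = 0.00967) and 0.69 ± 0.15 in E2+PROG (limma, adjusted p = 0.00536). S1PR3, a sphingosine phosphate receptor, was 0.47 ± 0.11 higher in E2+MPA (limma, adjusted p = 0.0188). GPER1, a membrane receptor reported to respond to estrogen, differed by -0.77 ± 0.16 in E2+PROG on the bead type used (limma, adjusted p = 0.00295) and by -0.05 on its other one. Counts with an array left out again stand without the share of all genes, so no reading on the list is drawn from them. In E2+MPA the count was 10 without E2+MPA replicate 1 and 1 without E2 replicate 2 or E2+MPA replicate 3 or 4. In E2+DHT it was 0 without E2 replicate 2 or E2+DHT replicate 1 or 4 and 2 without E2 replicate 3, and in E2+PROG it was 1 without E2 replicate 2. ADCY1 and SSTR2 had lower means than in E2 in each of these 3 combinations, as given above.

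**Figure D5:**
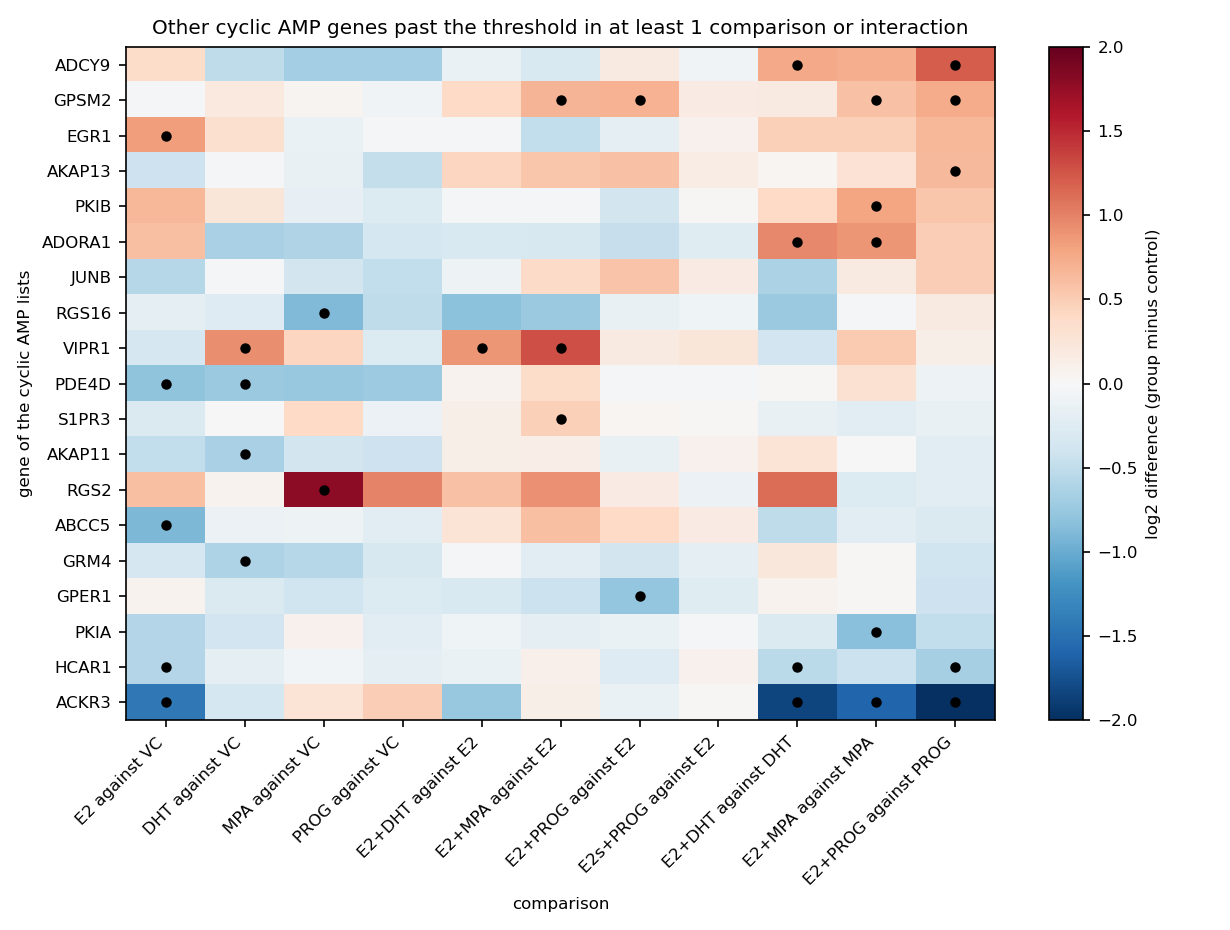
Log2 difference (colour, group minus control) of the 19 other genes of the cyclic AMP lists that passed the threshold in at least 1 of the 11 comparisons or 3 interactions, by gene (rows) and comparison (columns); black dots mark adjusted p under 0.05. ACKR3 is blue with a dot in all 4 comparisons of E2 with its absence (-1.43 to -2.05), and no gene has a dot in PROG against VC or E2s+PROG against E2.

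Where E2 was compared within a steroid, 2 genes were higher and 2 lower beside DHT (1.33% of all genes called), 3 and 2 beside MPA (1.35% of all), and 3 and 2 beside PROG (4.81% of all). Besides ADCY9 and ACKR3, the adenosine receptor ADORA1, coupled to Gi, was 0.96 ± 0.19 (SE) higher beside DHT (limma, adjusted p = 0.00267) and 0.88 ± 0.19 beside MPA (limma, adjusted p = 0.00856), with 0.00 and -0.20 on 1 of its other bead types. HCAR1 fell by 0.54 ± 0.13 beside DHT (limma, adjusted p = 0.0285) and fell by 0.67 ± 0.13 beside PROG (limma, adjusted p = 0.00107), with 0.00 on its other bead type in the latter. Beside MPA the protein kinase A inhibitor PKIB was 0.78 ± 0.20 higher (limma, adjusted p = 0.0465). Its relative PKIA, above background on no E2+MPA array, was lower (limma, adjusted p = 0.00172, at least 1.01-fold). PKIA was above background on only 4 arrays of the series, 3 of them MPA arrays, so it passed the filter mainly through a group compared. Its means, 5.16 in E2+MPA and 6.01 in MPA, lay at or near background, so no reading is drawn from this p-value. GPSM2 was higher beside MPA, by 0.59 ± 0.15 (limma, adjusted p = 0.0425), and beside PROG, by 0.75 ± 0.15 (limma, adjusted p = 0.00145). The anchor AKAP13 was 0.64 ± 0.18 higher beside PROG (limma, adjusted p = 0.0288), with 0.25 and 0.88 on its other bead types. This call was lost with the mean of the bead types, with the run as a block and outside the run. It was also lost without PROG replicate 1 or E2+PROG replicate 2 or 4. With 1 array left out, HCAR1 beside DHT was kept in 2 of 8 fits, and PKIB and GPSM2 beside MPA in 3 of 8 each. All 8 such fits kept HCAR1 and GPSM2 beside PROG. The other alternatives kept HCAR1 beside DHT in 4 of 12, and PKIB and GPSM2 beside MPA in 4 of 11 each. Beside MPA the count was 11 without E2+MPA replicate 1, 8 without E2+MPA replicate 2, 3 without MPA replicate 3 or E2+MPA replicate 4 and 2 without MPA replicate 4 or E2+MPA replicate 3. Beside DHT it was 2 without DHT replicate 4 or E2+DHT replicate 2 or 3. As above, the share of all genes in these fits is not given, and no reading on the list is drawn.

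As interactions, in which the E2 difference beside a steroid is set against that in vehicle, 2 of the 119 genes passed beside PROG, AKAP13 and JUNB (1.54% of all genes called), and none beside DHT (0.0082% of all), where 6 had an unadjusted p under 0.05 (limma), or beside MPA (0.0656% of all), where 25 did. Over the alternatives run, the count ranged from 0 to 4 beside PROG and from 0 to 1 beside MPA, again without the share of all genes.

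Of the 31 calls in 18 genes over the 11 comparisons, 12 held whichever array of the groups compared was left out. These include PKIA beside MPA, from which no reading is drawn. Under all alternatives run 5 held: the 4 of ACKR3 and ADCY9 in E2+PROG against PROG. ACKR3 is an atypical receptor whose link to Gi and cyclic AMP was not examined here.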

How the data were processed

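Illumina bead arrays of 36 ZR-75-1 samples were analysed from 2 deposited tables. The first held bead intensities with detection p-values, not normalised by the authors as far as the values show, since array medians ran from 121.6 to 247.5. In the second, the authors' processed intensities were a straight line of the first in each array (slopes 0.324 to 1.57), and it served as an alternative; the step behind it is not given in the sources used here. Detection p-values were those the authors deposited. No column belonged to other samples.

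Intensities were background-corrected with limma's neqc (3.58.1, R 4.3.3, offset 16), which also quantile-normalised them and took log2. Bead types with a detection p under 0.05 on at least 4 arrays were kept (21116 of 48803). The platform annotation gave 27578 bead types 1 gene symbol, 13 several and 21212 none. The brightest kept bead type stood for each gene. One limma model with a mean per group over all 36 arrays (27 residual degrees of freedom) gave every fitted difference and SE, and p-values were adjusted by Benjamini-Hochberg over 12195 genes with a threshold of 0.05.

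The members and the gene lists were chosen with earlier results of these data known, so the 3 genes carry no test. In each comparison up to 4 genes per list past the threshold were named, and for each member the 3 genes with the highest and the 3 with the lowest r. "At least" folds set a group not above background at each array's dimmest signal above background or its own signal. On simulated data with noise independent between genes and arrays, 156 of 200 genes changed 2-fold in E2 against VC were recovered over 12195 genes, with 4 false calls. The simulation held no component shared between genes, unlike the first residual component of these arrays. It therefore cannot show the false calls that shared variation brings. The alternatives changed the background correction, normalization, filter, bead type per gene, samples fitted, a replicate block and the run of neighbouring columns, and left out each array in turn. The run with VC replicate 1 as a block was added after seeing the data. The number of arrays limits the precision. Calmodulin genes were not analysed here. Promoter windows are those of RefSeq for GRCh38.p14, matched by symbol for 3 of 3 genes.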

Additional observations from a re-analysis of the deposited data

Results flagged for a closer look

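The values below are the gap of the farthest array from its nearest neighbour divided by the range of its group of 4. Chance flags about 1 in 20 groups, and 3 of 36 groups of the 3 genes were flagged. For ADCY1 in E2s+PROG, replicate 1 on ILMN_2120555 read 10.24 against 9.78 to 9.82 in the others (0.902), and replicate 4 on ILMN_1742073 read 7.71 against 8.03 to 8.09 (0.839), so different arrays stood out on the 2 bead types. For SSTR2 in PROG, replicate 1 read 8.57 against 9.19 to 9.22 (0.944). Among the other cyclic AMP genes, 2 of 63 groups were flagged, both in PROG: AKAP13, where replicate 1 read 9.14 against 9.61 to 9.71 (0.831), and HCAR1, where replicate 4 read 10.37 against 10.08 to 10.10 (0.901).

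In 2 genes the E2 difference beside PROG was not that in vehicle by a test of the difference itself, among 1.54% of all genes called. For AKAP13 the E2 difference was 1.06 log2 units more beside PROG (limma, adjusted p = 0.0206), and for JUNB, an early response gene, it was also 1.06 more (limma, adjusted p = 0.0401). Median scaling lost both calls. The JUNB call was also lost without the filter on dim bead types and with the replicate block. Neither JUNB difference passed by itself, in vehicle (limma, adjusted p = 0.151) or beside PROG (limma, adjusted p = 0.175). Interactions were not refitted with single arrays left out. AKAP13 means were 10.01 in VC, 9.60 in E2, 9.54 in PROG and 10.19 in E2+PROG, and those of JUNB were 9.51, 8.94, 9.01 and 9.51.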

How the results depend on the processing

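Of 738 recomputed differences of the 3 genes, interactions included, 724 kept their direction and 714 moved by less than 1 SD between replicates. These include, for each gene and comparison, 8 fits with 1 array left out. Leaving out 1 array moves a group mean by only a fraction of that array's deviation. Those fits could therefore hardly move a difference by 1 SD, and none did, so the 714 cannot be read as a measure of stability. With the background left in, differences shrank: ADCY1 to 1.52 (E2 against VC), -0.71 (MPA against VC), -1.54 (E2+PROG against E2), 1.59 (E2+DHT against DHT) and 0.94 (E2+MPA against MPA), and ADRA2A to 0.72 (E2 against VC), 0.65, 0.60 and 0.48 (E2 beside DHT, MPA and PROG). With the mean of its bead types, ADCY1 was 1.04 in E2+MPA against MPA. Outside the run ADCY1 was -1.24 in DHT against VC and 2.43 in E2+DHT against DHT. Inside the run ADCY1 was 2.13 (E2 against VC) and -0.42 (DHT against VC), ADRA2A 2.01 (E2 against VC, whose array was not above background) and -0.45 (E2+DHT against E2), and SSTR2 -0.081 (E2s+PROG against E2).

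Counts of other cyclic AMP genes called were less stable, and the cause was not tested. Here and in the paragraphs below, a count without the share of all genes called in the same fit is no result about the list. With the background left in, the count was 4 in MPA against VC (main 2) and 8 in E2+PROG against PROG (main 5). Median scaling, which moved the median of all genes by -0.14 to 0.18, gave 2 in E2 against VC, 0 in DHT and 1 in MPA against VC, 0 in E2+DHT, 1 in E2+MPA and 1 (lower, against 1 higher and 1 lower) in E2+PROG against E2, 2 (both lower, against 3 higher and 2 lower) in E2+MPA against MPA and 2 in E2+PROG against PROG. The authors' processed values gave 8 in E2 against VC, 4 (3 higher and 1 lower, against 1 and 1) in MPA against VC, 2 (1 and 1) in E2+DHT and 4 (3 and 1) in E2+PROG against E2. The mean of a gene's bead types gave 1 in E2+PROG against E2 and 3 in E2+MPA against MPA. Fits to only the groups compared, which have fewer arrays, gave 1, 0 and 0 in E2, DHT and MPA against VC, 0, 0 and 1 in E2+DHT, E2+MPA and E2+PROG against E2, 2 in E2+DHT against DHT and 1 in E2+MPA against MPA.

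With the run as a block the counts were 19, 9 and 6 in E2, DHT and MPA against VC (12.4%, 8.28% and 2.52% of all genes called) and 3, 8 and 4 in E2+DHT, E2+MPA and E2+PROG against E2 (1.3%, 4.29% and 3.32%). With VC replicate 1 added to that block they were 15, 11 and 4 (8.90%, 9.51% and 1.66% of all genes called), and 4, 11 and 4 (1.64%, 5.70% and 3.78%). Outside the run they were 13, 8 and 8 in E2, MPA and PROG against VC (10.5%, 5.69% and 5.96% of all genes called), 2, 1 and 1 in E2+DHT, E2+MPA and E2+PROG against E2 (0.689%, 0.722% and 1.09%), 2 in E2+MPA against MPA (0.730%) and 3 in E2+PROG against PROG (2.485%). Inside the run they were 1 and 0 in E2 and DHT against VC, 0, 5 and 0 in E2+DHT, E2+MPA and E2+PROG against E2 and 1 in E2+DHT against DHT. There AKAP11 turned to 0.011 in DHT against VC.

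Leaving out each array gave 3 to 8 in E2, 0 to 4 in DHT, 0 to 16 in MPA and 0 to 12 in PROG against VC. It gave 0 to 2 in E2+DHT, 1 to 10 in E2+MPA and 1 to 3 in E2+PROG against E2, 2 to 4 in E2+DHT against DHT and 2 to 11 in E2+MPA against MPA. Replicate numbers showed no regular pairing of the samples: same-numbered deviations had r from -0.70 to 0.70, over 0.1 in 17 of 44 pairs. Samples were closest to their own number in 12 pairs, of which E2+DHT against E2 and E2+PROG against PROG had 3 each. The deviations also hold the first residual component, so this check cannot exclude pairing. Among the counts of the 11 comparisons, the replicate block changed 1 by over 1.5 times, DHT against VC, to 2.

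Signal over background limits ADRA2A and ILMN_1742073, which were above background on 25 and 27 of 36 arrays.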
